A study of Homo sapiens with 10 samples.

Results

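The translation initiation factor genes are those whose symbol begins with EIF and a digit, such as EIF4E or EIF3A, without the EIF2AK kinase genes, the EIF4EBP inhibitor genes, pseudogenes and antisense genes. In the platform annotation 43 such genes, of 19775 genes in all, had a probe set that carries their symbol alone. Where a gene had several such probe sets, the one with the highest mean log2 signal over all arrays was read. The cells were LoVo, an established human colorectal adenocarcinoma cell line grown in DMEM, and total RNA of each culture was hybridized to its own Affymetrix HG-U133 Plus 2.0 array. There were 4 cultures of ADMA-treated cells, kept for 96 h in serum-free medium with 10 μM ADMA, 3 cultures of serum-starved cells (SS), kept for 96 h in serum-free medium, and 3 cultures of control cells (C), kept in medium with 10% fetal bovine serum. ADMA, asymmetric dimethylarginine, blocks the enzymes that make nitric oxide from arginine. The labels call the cultures of a group biological replicates without saying how they were raised, so that the p-values measure the spread between these cultures, all of 1 cell line.

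Translation initiation brings the small ribosomal subunit, the initiator tRNA and the mRNA together at a start codon. The eIF2 complex carries the initiator tRNA and is recharged with GTP by eIF2B, while eIF4E, eIF4G and eIF4A bind the cap of the mRNA and unwind it, eIF3 joins the mRNA to the ribosome, and eIF1, eIF1A, eIF5 and eIF5B govern scanning, start codon choice and subunit joining. The step is a main point at which growth signals and cell stress set the rate of protein synthesis, through phosphorylation of eIF2 and through the proteins that hold eIF4E.

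The values are MAS 5.0 signals, linear intensities with 1 value for each probe set, which give the RNA level of a gene and not the amount or activity of its protein. A gene was tested where the mean log2 signal of its probe set reached the median of all probe sets, a signal of 76.2, which 12344 genes did. Of the 43 initiation factor genes 41 passed. The others were EIF3C, an eIF3 subunit, and EIF4A2, a helicase of the cap complex, whose probe sets lay under the array background on all 3 control arrays. No fold is given for them. Each was read by 1 probe set, and probe sets that carry several symbols were not used. These values therefore do not show whether the genes were expressed. EIF4A1, another eIF4A gene, had no probe set of its symbol alone and is not among the 43. EIF1AY is counted among the 41 with no level given. Among the other 40 genes the dimmest was EIF4E3, at 556 to 947, so that none lay near the limit. Groups were compared with limma on log2 signals over all 10 arrays, and a gene was called higher or lower where its adjusted p, after Benjamini-Hochberg adjustment over the 12344 genes, was under 0.01 and its fold at least 1.2.

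The arrays had been scaled by the authors to the same trimmed mean, but their medians were still unequal. The median signal was 91.9 to 98.1 in ADMA-treated cells, 87.5 to 90.7 in serum-starved cells, against 60.7 to 73.1 in control cells. The 28S ribosomal RNA control probe sets averaged 671 to 935 in ADMA-treated cells, 1068 to 1653 in serum-starved cells, against 345 to 429 in control cells. The ratio of the 3' to the 5' ACTB probe sets, a sign of RNA integrity, was 1.02 to 1.05 in ADMA-treated cells, 1.13 to 1.23 in serum-starved cells, against 1.01 to 1.08 in control cells. All 12 colon epithelial markers passed the filter, with a summed signal of 167184 to 189682 in ADMA-treated cells, 132364 to 151350 in serum-starved cells, against 94871 to 95623 in control cells. They did not all move alike: 6 were called higher and 2 lower in SS minus C, beside 30.3% and 27.3% of all genes. In ADMA minus SS 8 were higher and 1 was lower, beside 15.7% and 13.8% of all genes. Of the other cell types, 3 of 7 fibroblast, 1 of 4 endothelial and 2 of 4 leukocyte markers passed. The leukocyte markers PTPRC and CD14 were under background on all 10 arrays, while the summed leukocyte signal, which includes LYZ, was 1364 to 2032 in ADMA-treated cells, 3974 to 4638 in serum-starved cells, against 492 to 703 in control cells. The part of these differences in the results was not tested.

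To learn how serum starvation bore on the initiation factors, SS was compared with C. Of the 41 tested genes 20 were lower and 2 were higher in serum-starved cells, that is 48.8% lower and 4.88% higher. Among all 12344 genes the shares called were 27.3% lower and 30.3% higher, 57.6% in all. The median log2 difference was -0.27 for the initiation factors and 0.07 for all tested genes. The genes that fell were spread over every role, from the cap-binding EIF4E to the eIF2B exchange factor and EIF5A, and the genes called higher were EIF4E3 and EIF1, of which EIF1 was below 0 once arrays were centred on their medians. The count depended on how the arrays were put on a common scale. Shares of all genes called are given as deposited only. A count after another scaling, here and below, thus cannot be read as particular to the initiation factors. Quantile normalization gave 4 higher and 16 lower, and centring each array on its median gave 0 higher and 33 lower, because it moved the median of all genes to -0.32. Relative to the median of all genes the initiation factors stood at -0.34 as deposited and at -0.13 after quantile normalization. Centring shifts all genes of an array by the same amount, so it cannot change this gap and is no check of it. In RNA from whole cultures fewer cells that express a gene and less RNA per cell cannot be told apart.

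To learn what ADMA changed in starved cells, ADMA was compared with SS. Here 10 of the 41 genes were higher and 2 were lower in ADMA-treated cells, that is 24.4% higher and 4.88% lower, beside 15.7% higher and 13.8% lower among all genes (29.5% in either direction). The genes that rose were EIF5A, EIF2D, EIF5A2, EIF2B3, EIF4B, EIF3L, EIF3D, EIF5B, EIF2B1 and EIF4E, and those that fell were EIF4E3 and EIF1AY. The median log2 difference was 0.09, against 0.03 for all tested genes. With arrays centred on their medians it was -0.024, against -0.091 for all tested genes, and 2 genes, EIF5A and EIF2D, were called higher and 3 lower. The initiation factors thus stood 0.07 above all genes as deposited, a gap that centring cannot change. They stood 0.021 above all genes after quantile normalization, which gave 9 higher and 2 lower.

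ADMA-treated cells, set against C, had 14 genes lower and 2 higher, that is 34.1% lower and 4.88% higher, beside 23.2% lower and 26.6% higher among all genes (49.8% in either direction). The genes called higher were EIF1 and EIF3H, and after centring neither was called and both differences were below 0, with 0 genes higher and 39 lower. Quantile normalization gave 2 higher and 14 lower. The median log2 difference was -0.15, against 0.07 for all tested genes, a gap of -0.22 that centring cannot change. After quantile normalization the gap was -0.031 (-0.093 against -0.062). The serum-starved arrays enter the first and the second of these comparisons and the control arrays the first and the third, so the comparisons are not independent of each other.

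**Figure D1:**
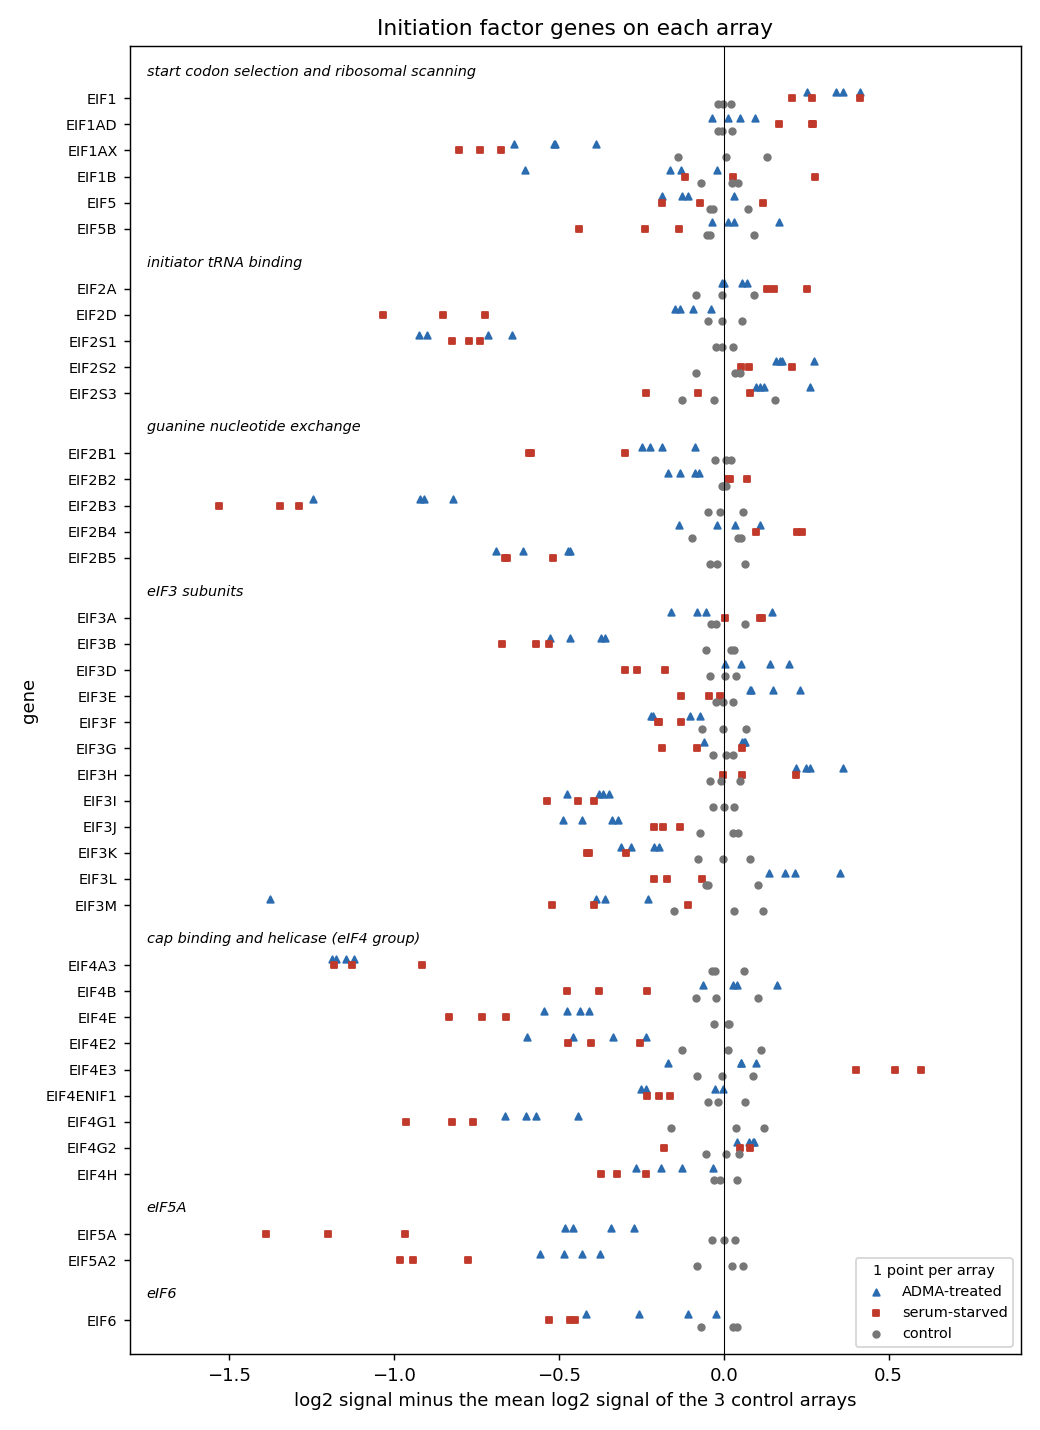
Each point is the log2 signal of 1 initiation factor gene on 1 array minus the mean of the 3 control arrays, on the horizontal axis, with the 40 genes that have a level given grouped by role on the vertical axis. Triangles are ADMA-treated, squares serum-starved and circles control arrays, and the squares of EIF2B3, EIF5A, EIF4A3, EIF5A2 and EIF2D lie farthest to the left while those of EIF4E3 lie to the right.

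**Figure D2:**
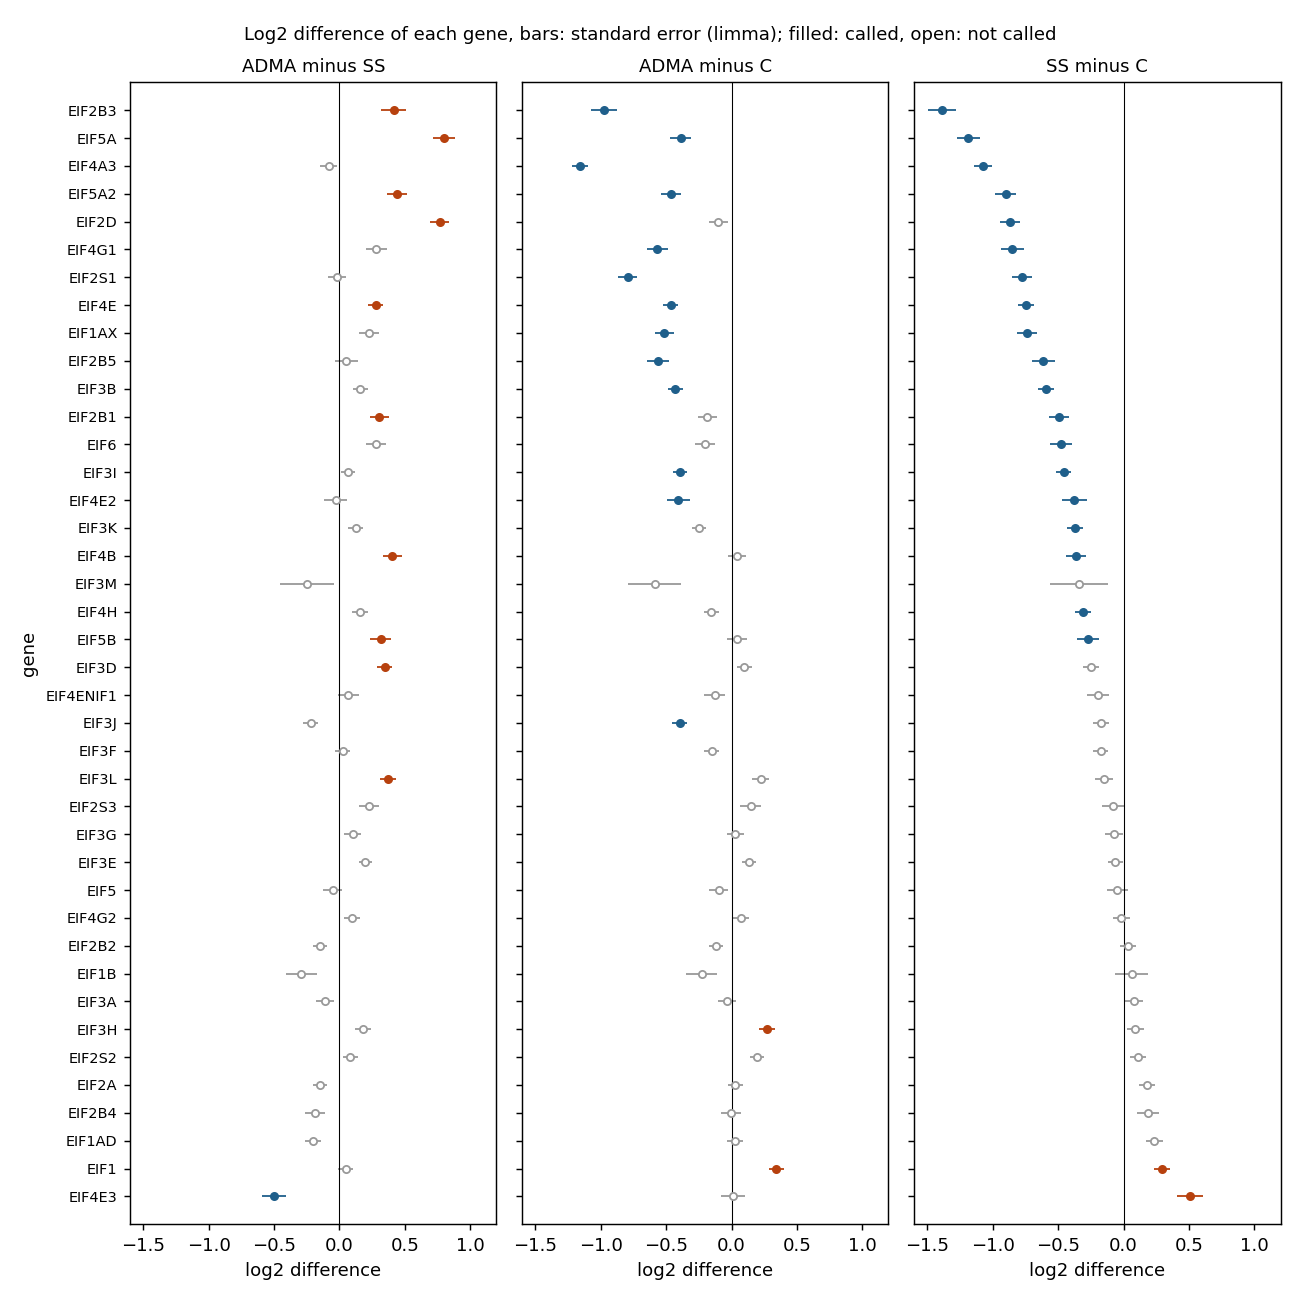
The log2 difference of each of the 40 genes, on the horizontal axes, is shown for ADMA minus SS, ADMA minus C and SS minus C, with bars of 1 standard error from limma and filled points for called genes. Genes run from the lowest SS minus C difference, EIF2B3 at -1.39, to the highest, EIF4E3 at 0.51. Centring the arrays turns the filled points of EIF1 in both panels against C, and of EIF3H in ADMA minus C, to below 0.

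Among the factors that bind the cap and unwind the mRNA, the 9 tested genes of the eIF4 group, 6 were lower and 1 was higher in SS than in C, beside 27.3% lower and 30.3% higher among all genes. In ADMA minus SS 2 of the 9 were higher and 1 was lower, beside 15.7% and 13.8% of all genes. In SS minus C, quantile normalization gave 4 lower and 1 higher in this group, and centring gave 8 lower and 0 higher. No share of all genes is given for these counts. EIF4E, which encodes the cap-binding protein that limits cap-dependent initiation, gave signals of 4443, 4528, 4114 and 4321 in ADMA-treated cells, 3801, 3610 and 3369 in serum-starved cells, and 6063, 5880 and 6075 in control cells. The 3 groups did not overlap, and the ADMA-treated arrays lay between the others. EIF4E differed by -0.74 ± 0.06 on the log2 scale in SS minus C (SE, limma adjusted p = 4.9e-08), by 0.28 ± 0.06 in ADMA minus SS (adjusted p = 0.00121) and by -0.47 ± 0.06 in ADMA minus C (adjusted p = 4.94e-06). The rise with ADMA was not called after centring (0.16) nor in the fits without serum-starved replicate 3 or ADMA replicate 2. With the mean of the probe sets of EIF4E its call was kept in no comparison. Of the 4 tested probe sets of EIF4E, 3 were called lower in SS minus C but the brightest alone was called higher in ADMA minus SS, where the others gave -0.14 ± 0.12, 0.10 ± 0.11 and 0.24 ± 0.20. EIF4G1, the scaffold that joins eIF4E to eIF4A and to eIF3, gave 2077, 2215, 2424 and 2173 in ADMA-treated cells, 1687, 1858 and 1944 in serum-starved cells, and 3376, 3580 and 2948 in control cells. It was lower in SS than in C, at -0.85 ± 0.08 (limma adjusted p = 4.18e-07) and in ADMA than in C, at -0.57 ± 0.08 (adjusted p = 1.89e-05). Its groups did not overlap in ADMA and SS either, but the difference of 0.28 ± 0.08 had an adjusted p of 0.0101 by limma and missed the threshold. After quantile normalization it was 0.33 and called higher, and after centring it was not called. The other probe set of EIF4G1 was called higher in ADMA minus SS, at 0.49 ± 0.12 (limma adjusted p = 0.00405). EIF4A3, a helicase related to eIF4A that sits in the exon junction complex on spliced mRNA, gave 2997, 3084, 3020 and 3136 in ADMA-treated cells, 3012, 3623 and 3124 in serum-starved cells, and 6665, 6701 and 7127 in control cells. All 7 arrays of cells without serum lay under the control arrays, and those of ADMA and SS overlapped. The log2 difference was -1.07 ± 0.07 in SS minus C and -1.16 ± 0.06 in ADMA minus C (limma adjusted p = 3.65e-09 and 1.68e-09), while ADMA minus SS gave -0.08 ± 0.06 (adjusted p = 0.322).

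EIF4E3, which encodes a cap-binding relative of eIF4E, was the eIF4 gene called higher in SS. Its signals were 649, 670, 556 and 650 in ADMA-treated cells, 947, 898 and 827 in serum-starved cells, and 665, 592 and 623 in control cells. All serum-starved arrays lay above all others, and the ADMA-treated and control arrays overlapped. EIF4E3 was higher in SS than in C by 0.51 ± 0.10 (log2, limma adjusted p = 0.00034) and lower in ADMA than in SS, at -0.50 ± 0.09 (adjusted p = 0.000555), and ADMA minus C gave 0.01 ± 0.09 (adjusted p = 0.943). After centring the rise in SS was 0.12 and not called, while the difference of ADMA minus SS was -0.61 and stayed called. Of its 4 probe sets, 3 gave SS minus C differences of 0.45 to 0.51 and the dimmest gave 0.23 ± 0.33. Neither call of EIF4E3 was kept with the mean of its probe sets. EIF4E2, another relative that binds the cap and represses bound mRNAs, gave 1738, 2229, 2080 and 1911 in ADMA-treated cells, 1985, 1893 and 2203 in serum-starved cells, and 2406, 2841 and 2649 in control cells. The control arrays were the highest and the other groups overlapped, with log2 differences of -0.38 ± 0.09 in SS minus C (limma adjusted p = 0.00264), -0.03 ± 0.09 in ADMA minus SS (adjusted p = 0.814) and -0.41 ± 0.09 in ADMA minus C (adjusted p = 0.00103). The first of these was not called without control replicate 2 or without serum-starved replicate 2. Neither call against C was kept with the mean of the probe sets of EIF4E2. Another probe set of nearly the same signal gave -0.10 ± 0.09 in SS minus C and -0.08 ± 0.09 in ADMA minus C, neither called. In SS minus C the dimmer probe sets gave -0.56 ± 0.10, called lower, and 0.39 ± 0.17, not called.

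The log2 ratio of EIF4E to EIF4E3 within each array, which no scaling of a whole array by a constant can move, was 2.79 ± 0.07 in ADMA-treated cells (SD, n = 4), 2.01 ± 0.01 in serum-starved cells (SD, n = 3) and 3.26 ± 0.07 in control cells (SD, n = 3). The signals of different probe sets cannot be compared as levels, so only the changes of the ratio count. It changed by 0.77 in ADMA minus SS and by -0.47 in ADMA minus C, each at p = 0.0286 by the exact permutation test (two-sided), the smallest p that 4 against 3 arrays allow. In SS minus C it changed by -1.25 with an exact permutation p of 0.1, the smallest that 3 against 3 allow. The 12 ratio tests gave Benjamini-Hochberg adjusted values of 0.0858, 0.0858 and 0.171 for these comparisons, so that none passed 0.05. The ratio of EIF4E to EIF4E2 changed by 0.31 in ADMA minus SS (two-sided exact permutation p = 0.0571, adjusted 0.137), by -0.37 in SS minus C (exact p = 0.1, adjusted 0.171) and by -0.06 in ADMA minus C (exact p = 0.6).

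EIF4B, which stimulates the eIF4A helicase, was lower in SS than in C, at -0.36 ± 0.07 (log2, limma adjusted p = 0.000534) and higher in ADMA than in SS by 0.41 ± 0.07 (adjusted p = 0.000309), and its relative EIF4H was lower in SS, at -0.31 ± 0.06 (adjusted p = 0.000563). Under quantile normalization the falls of EIF4B and EIF4H were -0.20 and -0.14 and the rise of EIF4B was 0.26, and none of them was called. After centring the rise of EIF4B was 0.29 and not called. EIF4ENIF1, which moves eIF4E into the nucleus, was called in no comparison. The brightest probe set of the group belonged to EIF4G2, a relative of eIF4G1 that lacks the eIF4E-binding part, with 16818, 16264, 16677 and 16854 in ADMA-treated cells, 16344, 13950 and 16716 in serum-starved cells, and 16332, 15214 and 15886 in control cells. Its groups overlapped throughout and its differences were -0.02 ± 0.07 in SS minus C, 0.09 ± 0.06 in ADMA minus SS and 0.08 ± 0.06 in ADMA minus C.

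**Figure D3:**
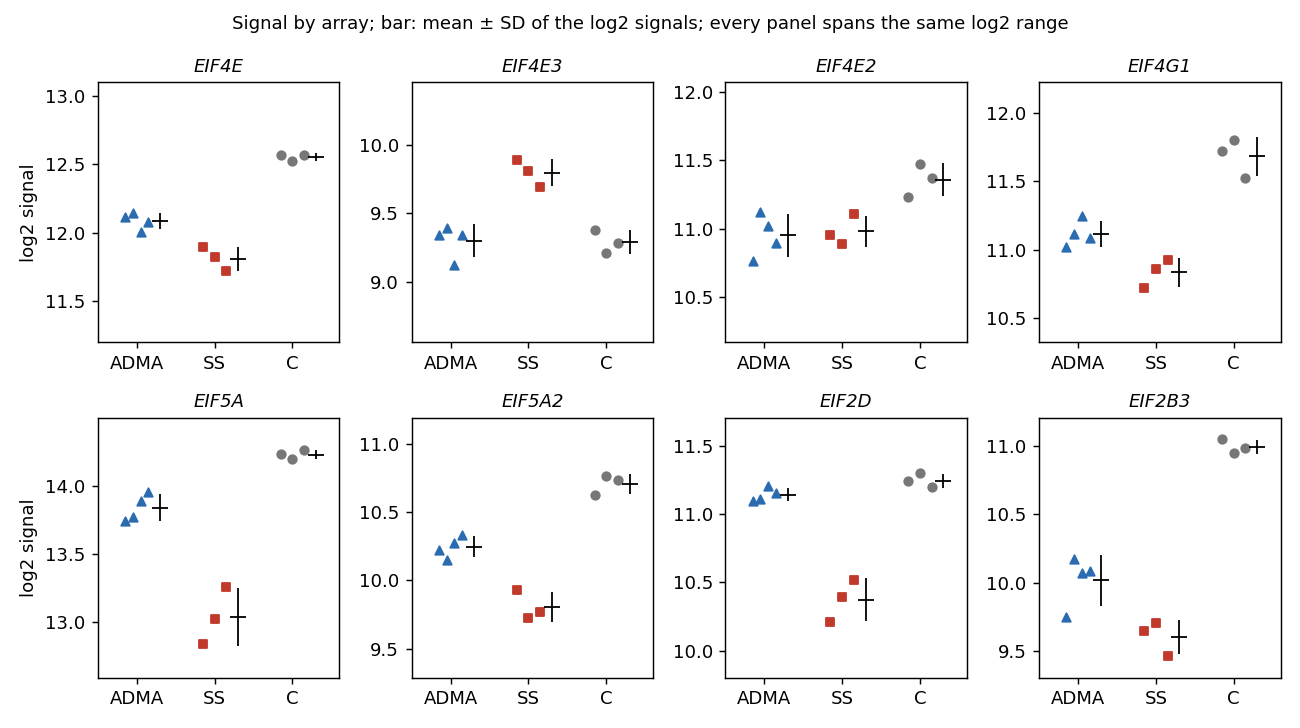
Log2 signal (vertical axis, the same span in every panel) of 8 genes on each ADMA-treated, serum-starved (SS) and control (C) array, with crosses for the mean ± SD of n = 4, 3 and 3. EIF4E, EIF4G1, EIF5A, EIF5A2 and EIF2B3 have the serum-starved arrays lowest and the ADMA-treated arrays between, EIF2D has the ADMA-treated arrays level with control, and EIF4E3 has the serum-starved arrays highest.

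Promoters of the genes were searched for 2 chosen motifs, CACGTG and CCGGAAG, and no search for other shared motifs was run. The RefSeq promoter table (GRCh38.p14) matched 37 of the 43 genes, each with 300 bases around the start of the gene. CACGTG, the E-box that MYC and its relatives bind, reads the same on both strands and was found in 10 of the 37 (27%), against 7.26% of all 35116 promoters of that length. It was present in 8 of the 20 genes called lower in SS minus C and in 2 of the 15 other tested genes with a promoter. CCGGAAG, a site of ETS factors, searched on both strands and not overlapping in its letters with the E-box, was found in 9 of the 37 (24.3%), against 10.3% of all promoters, in 5 of the 20 and 4 of the 15. The 35116 promoters outnumber the 19775 genes of the array, and no share over the tested genes alone was computed. The shares thus do not set the members beside genes of like signal. The promoters of EIF4E (chr4:98929084-98929383, minus strand) and EIF4G1 (chr3:184314356-184314655, plus strand), both called lower in SS minus C and holding the E-box in 2 copies, as EIF5A2 also does, are shown 5′ to 3′ with the E-boxes in capitals.
EIF4E: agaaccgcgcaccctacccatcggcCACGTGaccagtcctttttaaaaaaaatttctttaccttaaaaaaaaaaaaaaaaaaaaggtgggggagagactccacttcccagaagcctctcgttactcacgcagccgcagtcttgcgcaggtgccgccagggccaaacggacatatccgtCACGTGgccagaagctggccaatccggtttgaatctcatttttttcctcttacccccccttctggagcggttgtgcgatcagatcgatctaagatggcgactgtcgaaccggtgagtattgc
EIF4G1: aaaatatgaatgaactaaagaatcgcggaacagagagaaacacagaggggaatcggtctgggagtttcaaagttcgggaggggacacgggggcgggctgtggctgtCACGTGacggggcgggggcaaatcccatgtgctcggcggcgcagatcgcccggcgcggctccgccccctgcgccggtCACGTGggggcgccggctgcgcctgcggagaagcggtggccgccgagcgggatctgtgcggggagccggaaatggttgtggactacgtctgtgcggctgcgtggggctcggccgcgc
A match describes the letters of the window and is no evidence that a factor was bound there.

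EIF5A and EIF5A2 encode eIF5A, the protein that carries hypusine and helps the ribosome form difficult peptide bonds, and both were called lower in SS minus C, higher in ADMA minus SS and lower in ADMA minus C. EIF5A gave 13721, 13965, 15122 and 15881 in ADMA-treated cells, 7326, 8337 and 9798 in serum-starved cells, and 19179, 18710 and 19627 in control cells. EIF5A2 gave 1194, 1137, 1240 and 1290 in ADMA-treated cells, 976, 846 and 870 in serum-starved cells, and 1579, 1740 and 1700 in control cells. In both genes the 3 groups lay apart with serum-starved cells lowest. EIF5A had the largest rise of the 40 genes in ADMA minus SS, a log2 difference of 0.80 ± 0.08 (limma adjusted p = 3.42e-06), beside -1.19 ± 0.09 in SS minus C (adjusted p = 1.73e-08), and ADMA minus C was -0.39 ± 0.08 (adjusted p = 0.00081). For EIF5A2 the differences were 0.44 ± 0.08 in ADMA minus SS (adjusted p = 0.000319), -0.90 ± 0.08 in SS minus C (adjusted p = 1.39e-07) and -0.46 ± 0.08 in ADMA minus C (adjusted p = 8.95e-05). After centring, the rise of EIF5A2 was 0.32 and not called. The 3 probe sets of each gene were called lower in SS minus C, at -1.19, -1.39 and -1.68 for EIF5A, and called higher in ADMA minus SS. The log2 ratio of EIF5A to EIF5A2 changed by 0.36 in ADMA minus SS (two-sided exact permutation p = 0.0286, adjusted 0.0858) and by -0.29 in SS minus C (exact p = 0.2). Without serum-starved replicate 1 these changes were 0.24 and -0.105. DHPS and DOHH, the enzymes that make hypusine, were called in no comparison, and DHPS had 1944 to 2424 in ADMA-treated cells, 2110 to 2210 in serum-starved cells, against 1929 to 2275 in control cells.

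The eIF2 complex and its alternatives carry the initiator tRNA to the ribosome, and of their 5 genes 2 were lower and 0 higher in SS than in C, beside 27.3% lower and 30.3% higher among all genes. Quantile normalization gave 2 lower and 2 higher, and centring 3 lower and 0 higher. EIF2S1, the alpha subunit that stress kinases phosphorylate, gave 2626, 2583, 2988 and 3144 in ADMA-treated cells, 2938, 2771 and 2870 in serum-starved cells, and 4825, 4888 and 4995 in control cells. Both serum-free groups lay under the control arrays and overlapped each other. The difference was -0.78 ± 0.07 in SS minus C and -0.79 ± 0.07 in ADMA minus C (limma adjusted p = 2.76e-07 and 1.74e-07), and -0.02 ± 0.07 in ADMA minus SS (adjusted p = 0.871). EIF2S2, the beta subunit, gave 8972, 9053, 9079 and 9708 in ADMA-treated cells, 8330, 8475 and 9279 in serum-starved cells, and 7579, 8315 and 8230 in control cells, and was called in no comparison, with 0.11 ± 0.06 in SS minus C. A dimmer probe set of EIF2S2 was called lower in SS, at -2.55 ± 0.54 (limma adjusted p = 0.00076), so that its probe sets disagree. By the probe sets read, EIF2S3, the gamma subunit, and EIF2A were called in no comparison. Another probe set of EIF2S3 was called higher in SS minus C (0.30 ± 0.08) and in ADMA minus C (0.42 ± 0.08), and a further one was not called.

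EIF2D, which can deliver initiator tRNA without GTP, was lower in SS than in C and higher in ADMA than in SS. It gave 2190, 2209, 2358 and 2274 in ADMA-treated cells, 1184, 1343 and 1468 in serum-starved cells, and 2415, 2517 and 2343 in control cells. The ADMA-treated arrays overlapped those of control cells and lay above every serum-starved array. The difference was 0.77 ± 0.07 in ADMA minus SS (limma adjusted p = 1.49e-06), -0.87 ± 0.08 in SS minus C (adjusted p = 1.29e-07) and -0.10 ± 0.07 in ADMA minus C (adjusted p = 0.233). The gene was read by 1 probe set.

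Of the 5 genes of eIF2B, the exchange factor that recharges eIF2 with GTP, EIF2B1, EIF2B3 and EIF2B5 were lower in SS than in C, and EIF2B1 and EIF2B3 were higher in ADMA than in SS, beside 27.3% of all genes lower in SS minus C and 15.7% higher in ADMA minus SS. EIF2B3, the gamma subunit, had the largest fall of the 40 genes in SS minus C. It gave 860, 1153, 1076 and 1087 in ADMA-treated cells, 801, 835 and 706 in serum-starved cells, and 2122, 1974 and 2023 in control cells. ADMA replicate 1 lay close above the serum-starved arrays, and every ADMA-treated array lay under all control arrays. The differences were -1.39 ± 0.10 in SS minus C (limma adjusted p = 1.98e-08), 0.41 ± 0.10 in ADMA minus SS (adjusted p = 0.00322) and -0.97 ± 0.10 in ADMA minus C (adjusted p = 6.56e-07). The rise with ADMA was 0.30 and not called after centring, and it was not called without serum-starved replicate 3, ADMA replicate 2 or ADMA replicate 4. EIF2B1, the regulatory alpha subunit, gave 3023, 3100, 2969 and 3317 in ADMA-treated cells, 2351, 2340 and 2869 in serum-starved cells, and 3580, 3461 and 3540 in control cells. Its differences were -0.49 ± 0.08 in SS minus C (limma adjusted p = 5.24e-05) and 0.31 ± 0.07 in ADMA minus SS (adjusted p = 0.00359), and the rise was 0.19 and not called after centring, nor was it called without serum-starved replicate 1, serum-starved replicate 2 or ADMA replicate 4. EIF2B5, the catalytic epsilon subunit, was lower in SS, at -0.61 ± 0.09 (adjusted p = 2.72e-05) and in ADMA than in C, at -0.56 ± 0.08 (adjusted p = 4.39e-05), with 0.05 ± 0.08 in ADMA minus SS. EIF2B2 and EIF2B4 had differences of 0.03 ± 0.06 and 0.19 ± 0.08 in SS minus C and were called in no comparison.

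The 7 genes of start codon selection, scanning and subunit joining included 3 lower and 1 higher in SS than in C, beside 27.3% lower and 30.3% higher among all genes. Quantile normalization gave 2 lower and 0 higher, and centring 4 lower and 0 higher. EIF1, which guards the choice of the start codon, gave 28556, 29022, 26889 and 30073 in ADMA-treated cells, 27180, 26050 and 30054 in serum-starved cells, and 22291, 22527 and 22894 in control cells. Every array without serum lay above the control arrays as deposited, with 0.30 ± 0.06 in SS minus C (limma adjusted p = 0.000556) and 0.34 ± 0.06 in ADMA minus C (adjusted p = 0.000104), but the differences were -0.093 and -0.16 after centring, and -0.017 in ADMA minus C after quantile normalization. The call in SS minus C was also lost after quantile normalization (0.24) and without serum-starved replicate 3. As deposited, other bright probe sets of EIF1 were called higher in SS minus C, at 0.58, 0.61 and 0.64. So was a dim one, at 4.41 ± 0.39, with a mean signal of 27.5 in control cells. The remaining dim probe sets gave 0.28 ± 0.15, not called, and -0.49 ± 0.11, called lower. EIF1B, its close relative, gave 2618, 3915, 3552 and 3632 in ADMA-treated cells, 3666, 4815 and 4052 in serum-starved cells, and 4047, 3789 and 4095 in control cells. Its groups overlapped and it was called in no comparison, with 0.06 ± 0.13 in SS minus C. The log2 ratio of EIF1 to EIF1B changed by 0.57 in ADMA minus C (two-sided exact permutation p = 0.0286, adjusted 0.0858), by 0.34 in ADMA minus SS (exact p = 0.2) and by 0.23 in SS minus C (exact p = 0.4). The change in ADMA minus SS was 0.186 without serum-starved replicate 2 and 0.214 without ADMA replicate 1, and that in SS minus C was 0.385 without serum-starved replicate 2 and 0.157 without serum-starved replicate 3. EIF1AX, a form of eIF1A, which works with eIF1 in scanning, was lower in SS than in C, at -0.74 ± 0.08 (limma adjusted p = 9.21e-07), and all 4 of its probe sets were called lower. EIF5B, the GTPase of subunit joining, was lower in SS, at -0.27 ± 0.08 (adjusted p = 0.00955) and higher in ADMA than in SS by 0.31 ± 0.08 (adjusted p = 0.00442). Its fall kept the call in 11 of 23 alternative analyses only, being lost when any of 8 arrays was left out, and its rise was lost after centring (0.20), with the mean of its probe sets, in limma without the trend, and without serum-starved replicate 1, serum-starved replicate 2 or ADMA replicate 4. By the probe sets read, EIF5, the GTPase activator of eIF2, and EIF1AD were called in no comparison. Other bright probe sets of EIF5 were called lower in ADMA minus SS (-0.27 and -0.31) and ADMA minus C (-0.41 and -0.55), and another was called in none. A dim one was called higher in SS minus C (1.28) and ADMA minus C (0.73) and lower in ADMA minus SS (-0.55). A dimmer probe set of EIF1AD was called lower in SS minus C (-0.45) and ADMA minus C (-0.53).

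The eIF3 complex, the largest initiation factor, joins the ribosome to the mRNA. Of its 12 tested subunit genes 3 were lower and 0 higher in SS than in C, which was 25% lower, beside 27.3% lower and 30.3% higher among all genes. Quantile normalization gave 2 lower and 1 higher, EIF3H, and centring gave 11 lower and 0 higher. These were EIF3B (-0.59 ± 0.06, limma adjusted p = 7.08e-07), EIF3I (-0.46 ± 0.06, adjusted p = 4.17e-06) and EIF3K (-0.37 ± 0.06, adjusted p = 5.59e-05). After quantile normalization EIF3I was -0.29 and still called, and EIF3K was -0.20 and not called. With the mean of the probe sets of a gene, EIF3B and EIF3K both lost the call. EIF3B and EIF3K each also had a dim probe set called higher in SS, at 1.47 ± 0.30 and 1.75 ± 0.22. By the probe sets read, the other 9 subunits lay between -0.34 and 0.09 in SS minus C. Dimmer probe sets of EIF3H (-1.71 ± 0.19) and EIF3A (-0.53 ± 0.08) were called lower there, and a dim one of EIF3M was called higher (1.14 ± 0.34). EIF3L had the brightest probe set of the complex, with 18558, 17951, 18971 and 20849 in ADMA-treated cells, 14110, 14488 and 15602 in serum-starved cells, and 15715, 15786 and 17538 in control cells. The ADMA-treated arrays lay above all others, and the difference was 0.37 ± 0.06 in ADMA minus SS (limma adjusted p = 0.000272), while SS minus C gave -0.15 ± 0.07 (adjusted p = 0.0629). EIF3D, a subunit that can bind the cap of some mRNAs, was also higher in ADMA than in SS, by 0.34 ± 0.06 (adjusted p = 0.000217). Neither rise was called after quantile normalization (EIF3L 0.19, EIF3D 0.24) or centring (EIF3L 0.26, EIF3D 0.23). In ADMA minus C, EIF3H was higher by 0.27 ± 0.06 (limma adjusted p = 0.00103) and -0.23 after centring, a call that was lost without control replicate 1 or ADMA replicate 4, and EIF3J was lower, at -0.39 ± 0.06 (adjusted p = 2.47e-05). The dimmer probe set of EIF3H was called lower in ADMA minus C, at -0.86 ± 0.18, so that its probe sets disagree.

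EIF6, which keeps the large ribosomal subunit from joining too early, gave 4625, 5130, 4137 and 5441 in ADMA-treated cells, 3833, 4008 and 4051 in serum-starved cells, and 5272, 5642 and 5692 in control cells. It was lower in SS than in C, at -0.48 ± 0.08 (limma adjusted p = 0.000137). The ADMA-treated arrays lay above the serum-starved ones and reached into the control range, but the difference of 0.28 ± 0.08 in ADMA minus SS had an adjusted p of 0.0106.

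Several probe sets read most of these genes, 100 in all over the 41 genes, and 26 genes had more than 1. In SS minus C the probe sets of 5 genes were all called in the same direction, those of 5 were all not called, 13 genes had some called, and EIF1, EIF3B and EIF3K had calls in opposite directions. In ADMA minus SS no gene had opposite calls, 2 genes had all probe sets called in the same direction, and 12 had none called. In ADMA minus C the genes with opposite calls were EIF3B, EIF3H, EIF3K and EIF5. Over the 23 alternative analyses the SS minus C call was the same in each of them for EIF1AX, EIF2B1, EIF2B3, EIF2B5, EIF2S1, EIF3I, EIF4A3 and EIF5A2. In ADMA minus SS it was the same in 22 for EIF2D, EIF5A, EIF5A2 and EIF4E3. EIF2D and EIF5A had no probe set left to test where those that may bind several transcripts were left out, EIF5A2 lost it after centring, and EIF4E3 lost it where the probe sets of a gene were averaged (-0.25).

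The regulators of these factors were read from 7 lists. The eIF2 kinases and phosphatase subunits set or remove the stress mark on eIF2. Of the 6 genes 4 were higher and 0 lower in SS than in C, beside 30.3% higher and 27.3% lower among all genes. In ADMA minus SS 4 were lower and 0 higher, beside 13.8% lower and 15.7% higher among all genes. PPP1R15A, the stress-induced subunit that guides the phosphatase to eIF2, had signals of 599 to 761 in ADMA-treated cells, 1124 to 1297 in serum-starved cells, against 448 to 523 in control cells, and rose by 1.27 ± 0.11 in SS minus C (log2, limma adjusted p = 6.74e-08) and fell by 0.83 ± 0.10 in ADMA minus SS (adjusted p = 1.44e-05). EIF2AK3, the kinase PERK of the endoplasmic reticulum, had 508 to 668 in ADMA-treated cells, 1155 to 1335 in serum-starved cells, against 577 to 606 in control cells. It rose by 1.10 ± 0.11 in SS minus C (limma adjusted p = 3.13e-07) and fell by 1.17 ± 0.10 in ADMA minus SS (adjusted p = 5.53e-07). The other genes called in SS minus C were PPP1R15B at 0.84 and EIF2AK2 at 0.67, and those in ADMA minus SS were PPP1R15B at -0.51 and EIF2AK4, the amino acid sensor GCN2, at -0.45. After centring 3 genes of this list were higher and 1 was lower in SS than in C, and 0 were higher and 4 were lower in ADMA than in SS.

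A list of 7 genes held kinases of eIF4E and of the mTOR pathway, together with RPTOR and the ribosomal protein gene RPS6, which are not kinases. Of the 7 genes 2 were higher and 1 was lower in SS, beside 30.3% higher and 27.3% lower among all genes. Centring gave 2 higher and 3 lower. MKNK2, a kinase of eIF4E, had signals of 6827 to 8060 in ADMA-treated cells, 10199 to 12250 in serum-starved cells, against 4267 to 4464 in control cells. It rose by 1.37 ± 0.08 in SS minus C (limma adjusted p = 1.05e-09) and fell by 0.62 ± 0.07 in ADMA minus SS (adjusted p = 1.29e-05). RPS6KB2, which encodes a kinase of ribosomal protein S6, had 302 to 434 in ADMA-treated cells, 304 to 336 in serum-starved cells, against 724 to 843 in control cells, and was lower in SS at -1.33 ± 0.13 (limma adjusted p = 4.85e-07), with 0.24 ± 0.13 in ADMA minus SS. MTOR and RPTOR were called in no comparison. Of the 3 tested inhibitors CYFIP1, which holds eIF4E in neurons, was higher in SS than in C by 0.26 ± 0.05 (limma adjusted p = 0.000533), 0.45 after quantile normalization and -0.13 after centring. EIF4EBP2, an inhibitor of eIF4E, was higher in ADMA than in SS by 0.32 ± 0.08 (adjusted p = 0.00308), though 0.21 and not called after centring, and EIF4EBP1 was called in no comparison.

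Among 11 poly(A)-binding and mRNA recruitment partners 4 were lower and 1 was higher in SS, beside 27.3% lower and 30.3% higher among all genes. Centring gave 7 lower and 0 higher, with DDX3X, the helicase gene called higher as deposited, at -0.12. ABCE1, which splits ribosomes for reuse, had 4250 to 4966 in ADMA-treated cells, 3232 to 3474 in serum-starved cells, against 5956 to 6617 in control cells. It fell by 0.90 ± 0.07 in SS minus C (limma adjusted p = 2.87e-08) and rose by 0.44 ± 0.07 in ADMA minus SS (adjusted p = 0.000102). MCTS1, a partner in reinitiation, had 4133 to 4797 in ADMA-treated cells, 3612 to 3969 in serum-starved cells, against 5626 to 6010 in control cells, and was lower in SS than in C, at -0.64 ± 0.07 (adjusted p = 5.52e-07). Of 7 elongation and termination factors 2, the release factor genes GSPT1 and ETF1, were lower in SS, at -0.43 and -0.28, beside 27.3% of all genes, and 0 were called in ADMA minus SS. In SS minus C quantile normalization gave 1 lower, with ETF1 at -0.13 and not called, and centring gave 5 lower. Of 7 mitochondrial translation factors 5 were lower in SS than in C, beside 27.3% of all genes, and 3 were higher in ADMA than in SS, beside 15.7% of all genes. After centring 1 of the 3, TUFM, was called higher in ADMA minus SS, with TSFM at 0.28 and MTRF1L at 0.22. TSFM, a mitochondrial elongation factor, had 2062 to 2675 in ADMA-treated cells, 1737 to 1832 in serum-starved cells, against 5152 to 5252 in control cells, with -1.53 ± 0.09 in SS minus C (limma adjusted p = 1.38e-09) and 0.40 ± 0.08 in ADMA minus SS (adjusted p = 0.0015). TUFM, its partner, had 6015 to 6695 in ADMA-treated cells, 4389 to 4870 in serum-starved cells, against 9650 to 10410 in control cells, with -1.13 ± 0.06 in SS minus C (adjusted p = 7.87e-10) and 0.51 ± 0.06 in ADMA minus SS (adjusted p = 9.77e-06). Both genes had their serum-starved arrays lowest and their control arrays highest, with no overlap.

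**Figure D4:**
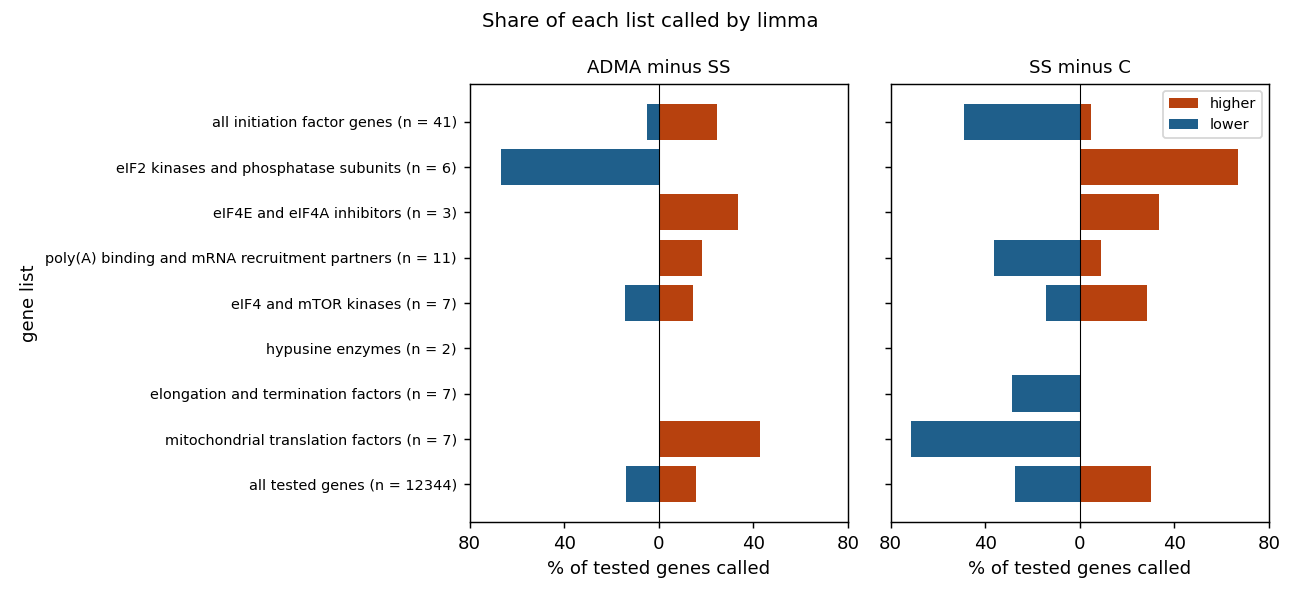
Bars give the percentage of the tested genes of each list (vertical axis, with the number tested) that were called lower, to the left, or higher, to the right, in ADMA minus SS and in SS minus C. In SS minus C the initiation factors have 48.8% lower and 4.88% higher beside 27.3% and 30.3% of all tested genes, and the eIF2 kinases and phosphatase subunits have 66.7% higher, while after centring 33 initiation factors were lower and 0 higher. No share of all genes is given for the centred arrays.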

How the data were processed

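Total RNA of LoVo cells was hybridized to Affymetrix HG-U133 Plus 2.0 arrays by the study. The deposited intensity of each of the 54675 probe sets is the linear MAS 5.0 signal the authors computed, scaled so that every array has a 2% trimmed mean of about 500.1, and no depth applies to it: the number of arrays limits the precision. Here the log2 of each deposited intensity was taken with no pseudocount. A gene was named from the 41091 probe sets with 1 symbol, and 1801 with several were not used for naming. limma 3.58.1 in R 4.3.3 (lmFit, then eBayes with an intensity trend) was fitted on 12344 genes and all 10 arrays, and tested on simulated data beforehand. The thresholds, an adjusted p of 0.01 and a fold of 1.2, follow the study's methods, where they belong to SAM, which was not run. The background of an array was the 95th percentile of 27 bacterial control probe sets.

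The members and all lists were chosen with earlier results of these data known. Values on every array were given for the 8 largest falls and up to 4 largest rises in SS minus C, up to 4 largest rises and falls in ADMA minus SS, the genes of the paralogue ratios and the brightest gene of each role, and in each other list for the 2 called genes with the largest SS minus C difference or the brightest. Other genes were named after their values were seen. Ratios of EIF4A1 to EIF4A2 and of EIF4G1 to EIF4G3 could not be computed, since these pairs were not both tested with a probe set of 1 symbol. Arrays of a group correlated at 0.987 at most and none were identical. Same-numbered replicates had correlations of deviations of -0.07 to 0.10, so the numbers were not taken as pairs. Alternatives were quantile normalization, centring, other filters, a pseudocount of 16, array weights or no trend in limma, the arrays of 2 groups alone, an adjusted p of 0.05 without a minimum fold, the mean of the probe sets of a gene, no probe sets shared between transcripts, signals under background set to it, the replicate block and each array left out. Python 3.11.15 with matplotlib 3.10.9 drew the figures.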

Additional observations from a re-analysis of the deposited data

Results flagged for a closer look

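In ADMA-treated cells, the group with 4 arrays, 4 of the 40 genes checked had 1 array apart from the others, where chance alone gives about 1 in 20. EIF3M, an eIF3 subunit, gave 3108 in ADMA replicate 3 and 6175 to 6882 in the other ADMA-treated cultures, a gap of 0.864 of the range. EIF3G, another eIF3 subunit, gave 3340 in ADMA replicate 1 and 3620 to 3645 in the others, a gap of 0.920 of the range. EIF2S2 gave 9708 in ADMA replicate 4 and 8972 to 9079 in the others, a gap of 0.850, and EIF2S3 gave 10132 in the same culture and 9043 to 9205 in the others, a gap of 0.844. With all arrays none of these genes was called in any comparison by the probe set read. EIF3M was called lower in SS minus C without ADMA replicate 3, and lower in ADMA minus C without ADMA replicate 1.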

How the results depend on the processing

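No share of all genes called is given for the settings in this section. With arrays centred on their medians, genes higher and lower numbered 0 and 33 in SS minus C, 2 and 3 in ADMA minus SS, and 0 and 39 in ADMA minus C. The medians of the initiation factors against C were -0.66 and -0.66, beside -0.32 and -0.44 for all tested genes. EIF1 then gave -0.093 in SS minus C and -0.16 in ADMA minus C, where EIF4E3 gave -0.50, EIF2S2 -0.31, EIF3L -0.28 and EIF4G2 -0.43. Quantile normalization gave 4 genes higher in SS minus C, and in ADMA minus C -0.017 for EIF1 and -0.082 for the EIF5A to EIF5A2 ratio. An adjusted p of 0.05 without a fold gave 4 higher in SS minus C, 18 higher and 6 lower in ADMA minus SS, and 5 higher in ADMA minus C. The mean of the probe sets of a gene gave 1 higher in SS minus C, 1 lower in ADMA minus SS, -1.22 for EIF2S2 in SS minus C and -0.33 for the EIF5A to EIF5A2 ratio in ADMA minus C. Without probe sets shared between transcripts, which leaves 34 genes, 4 were higher in SS minus C, and 4 higher and 8 lower in ADMA minus C. In SS minus C 3 calls then turned, that of EIF1 to lower and those of EIF3B and EIF3K to higher. EIF1, then read by a dim probe set, gave -0.49 in SS minus C and -0.11 in ADMA minus C. EIF2S2 then gave -2.55 in SS minus C and the EIF1 to EIF1B ratio -0.55. In ADMA minus SS, EIF4E then gave -0.14, EIF4E2 0.34 and the EIF4E to EIF4E2 ratio -0.48. limma without the trend gave 1 lower in ADMA minus SS. The cause of these changes was not tested.

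Leaving out 1 array gave 1 to 3 higher and 18 to 21 lower in SS minus C, 7 to 11 higher and 1 to 2 lower in ADMA minus SS, and 1 to 3 higher and 14 to 15 lower in ADMA minus C, with medians of -0.29 to -0.23, 0.07 to 0.14 and -0.17 to -0.10. The EIF4E to EIF4E2 ratio in ADMA minus C was -0.132 to 0.011, being above 0 without control replicate 1. With the replicate number as a block, 7 genes were higher and 1 lower in ADMA minus SS, 1 higher and 15 lower in ADMA minus C, and 2 higher and 20 lower in SS minus C. Single values were followed only for the initiation factor genes given on every array, many of them picked for large called differences. Of these values 1084 kept direction and side of the threshold, 32 gained a call, 32 lost one and 13 reversed. The other initiation factor genes are not in these numbers. Over all 41 tested genes, centring alone added 13 calls in SS minus C and 25 in ADMA minus C.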
